A study of Mus musculus with 13 samples.

Results

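Chemokines are small secreted proteins that guide cells along concentration gradients, and chemokine receptors are the G protein-coupled receptors that read them. The genes described here are the mouse chemokine and chemokine receptor genes, taken as all symbols that begin with Ccl, Cxcl, Ccr or Cxcr followed by a digit, with Cx3cl1 added. Of the 53278 gene symbols in the count tables, 56 fit that description: 39 ligands and 17 receptors. Those with 10 or more reads in at least 3 of the 13 libraries are reported as expressed members. They were 25 genes, made up of 10 CC ligands, 7 CXC ligands, the CX3C ligand Cx3cl1, 5 CC receptors and 2 CXC receptors, and all 25 were among the 15690 genes tested.

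The libraries came from whole hearts of male wild-type C57Bl6 mice aged 17 weeks, after an operation at 12 weeks of age. Sham hearts (n = 3) had a sham operation and no injection. IR hearts (n = 3) had ischaemia and reperfusion (IR), in which blood flow to heart muscle is stopped and then restored, with no injection. A control virus was given with the same injury in IR virus hearts (n = 3). In IR edit hearts (n = 4) the injury was combined with a working base editing system aimed at CaMKIIδ, a calcium-dependent kinase of heart muscle. The labels give neither the vector nor the promoter of the editing system, and no Sham heart received an injection, so virus and injury were separated only by the IR hearts. All p-values measure the spread between these hearts.

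Inflammatory monocytes carry the receptor CCR2 and enter injured heart muscle along its ligands CCL2, CCL7 and CCL12, while CCR1 is carried by monocytes, macrophages and lymphocytes. CXCL5 and CXCL1 attract neutrophils through CXCR2, CXCL9 and CXCL10 attract activated T cells through CXCR3, and CCL11 attracts eosinophils through CCR3. CXCL12 from stromal and endothelial cells retains and guides cells that carry CXCR4, and fractalkine, the product of Cx3cl1, is a membrane-anchored ligand for CX3CR1 on macrophages and monocytes.

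Each heart gave between 20634820 and 27265276 counted reads, of which 5543 to 8892 belonged to the 56 chemokine and receptor symbols. On the first principal component, which held 27.5% of the variance, the 9 hearts without editing scored -26.5 to 3.83. The edited hearts scored 10.2, 34, -2.8 and 45.1 in order of number, so IR edit hearts 2 and 4 stood apart. Calls in comparisons of IR edit were therefore also computed without those 2 hearts, an alternative chosen after seeing the data. Of the genes named here with a call, Nr4a1, Fos and Abcc9 against Sham kept it without those hearts and the others did not. Camk2d, the targeted gene, lay between 197 and 280 CPM (read counts scaled with TMM to a common library size) and passed no test; base editing is meant to change its sequence, so its level does not check the labels. Cardiomyocyte marker genes summed to between 42300 and 54500 CPM in all hearts.

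Levels between genes were compared per kilobase of exon. Cxcl12 was the most abundant member in Sham hearts at 30.9 ± 6.12 CPM per kilobase (SD, n = 3). In every heart it supplied 68.3% to 80.9% of the summed CPM of the members. That share was not divided by exon length, and the 8176 exonic bases of Cxcl12 raise it relative to shorter members. Ccl6, a macrophage chemokine of mice, followed at 5.49 ± 2.42 CPM per kilobase, Cxcl14 at 4.87 ± 0.64 and Ccl11 at 2.94 ± 0.398. The ranges of Ccl6 and Cxcl14 lay within their spread of each other, and so did those of Ccl9 (2.59 ± 0.742) and Cxcr4 (2.50 ± 0.535). Cxcr4 was the most abundant of the receptors. Ccr9, a receptor of gut-homing lymphocytes, was the lowest member at 0.031 ± 0.0249 CPM per kilobase.

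**Figure D1:**
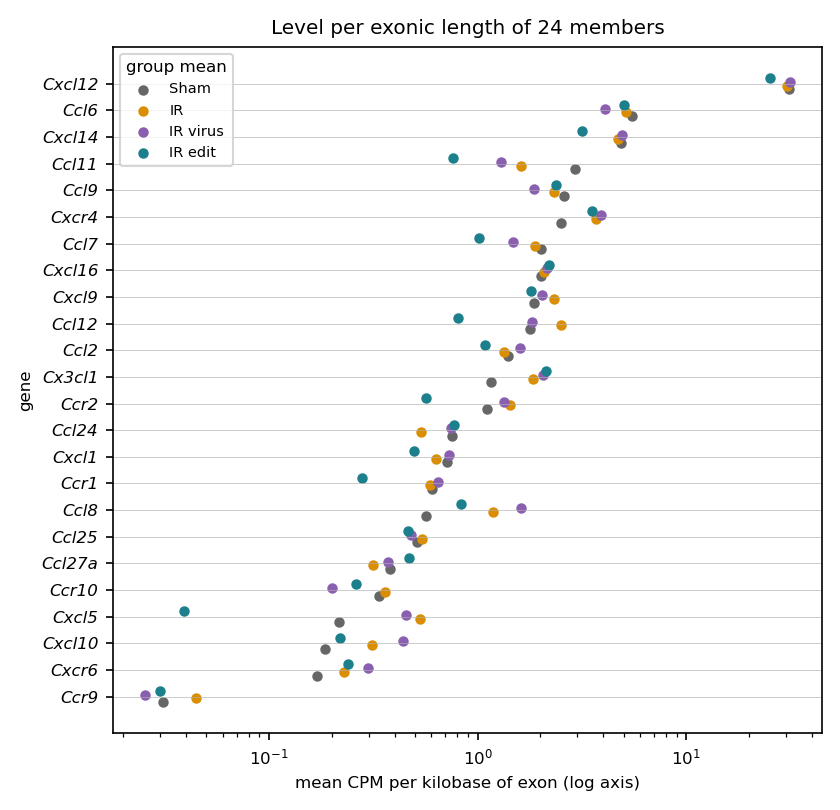
Mean level of each of 24 members in each group, in CPM per kilobase of exon on a log axis, with genes ordered by their Sham level. Cxcl12 lay above the other members in each group, and the IR edit point of Cxcl5 (0.0393) lay left of its 3 other group means (0.217 to 0.531).

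The remaining 31 symbols lay below the read minimum, and 10 of them had no read in any library. Several receptors of expressed ligands were among these. Cxcr2 had 1 to 9 reads per library, Cxcr3 0 to 5 and Ccr3 0 to 4. Ccr7, the receptor of CCL19 and CCL21, had 0 to 5. Of ligands below the minimum, Ccl5, an attractant of T cells and monocytes, had 1 to 10 reads and Ccl28 had 0 to 12. Ccl19, Ccl21a, Ccl21b and Ccl27b had no read, but these genes have near-identical copies and the treatment of reads with several matches is not given in the sources used here. The member nearest the minimum was Ccr9, with 10 or more reads in 4 libraries.

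Injury without editing was examined first, as the mean of IR and IR virus against Sham. Cx3cl1 and Cxcr4 lay above all Sham hearts in all 6 of these hearts. They were 2 of the 25 members, beside 752 of all 15690 genes. Ccl8, Cxcl5 and Cxcl10 had the 3 largest positive log2 fold changes, and Ccl11 had the largest negative one. By edgeR's quasi-likelihood test with Benjamini-Hochberg adjustment over all genes (threshold 0.05), 0 of the 25 members passed. A gene is said to pass by this test unless another is named. Across all genes 0.0191% passed, which is 3 genes, so the count of 0 is near the background. At an unadjusted p under 0.05 there were 6 members, where 14% of all genes reached that level. The Wald test of DESeq2 called 2 members, Cx3cl1 and Cxcr4. All shares of all genes printed here come from the edgeR test above, so counts by DESeq2 or other fits have no background beside them. The median log2 fold change of the members was 0.08, against 0.00 over all genes.

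In the same way IR against Sham called 0 of 25 members by edgeR, with 4 at an unadjusted p under 0.05 and 0 by DESeq2, beside backgrounds of 0.0127% adjusted and 8.33% unadjusted. IR virus against Sham called 0 by edgeR, with 7 at an unadjusted p under 0.05 and 2 by DESeq2, beside backgrounds of 0.0127% and 15.4%. IR virus against IR, the comparison of the control virus with no injection, called 0 by edgeR, 0 at an unadjusted p under 0.05 and 0 by DESeq2, beside backgrounds of 0% and 3.84%. The member medians were 0.07, 0.02 and 0.04 on the log2 scale.

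The edited hearts differed more widely from Sham. Of the 25 members, 6 passed the test in IR edit against Sham, where 8.01% of all genes did. Cx3cl1 and Cxcr4 were higher, beside 4.61% of all genes, and Cxcl5, Ccl11, Ccl7 and Ccr2 were lower, beside 3.4%. The members' median log2 fold change was -0.15, with 17 of 25 below 0, and the median of all genes was 0.00. This count depended on single hearts: it was 2 without Sham heart 1, 2 without Sham heart 3, 2 without IR edit heart 2 and 1 without IR edit heart 4. Without IR edit hearts 2 and 4 together it was 0. DESeq2 called 8 members in this comparison.

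Against IR virus, the group that shares injury and injection, 3 members passed in IR edit, all lower, among them Cxcl5 and Ccr2. The background of that comparison was 2.02%, and 1.06% of all genes passed as lower. The same 3 genes passed when the edited hearts were set against IR, where 1.42% of all genes passed and 0.637% passed as lower. In 6 of the 25 members, Cxcl5, Ccr2, Ccl12, Cxcl10 and Ccl2 among them, all IR edit hearts lay below all IR virus hearts, beside 7.07% of all genes. Both comparisons use the same 4 IR edit hearts, and they are not independent of each other. The member medians were -0.31 against IR virus and -0.35 against IR, while the medians over all genes were -0.01 and 0.00. The count against IR virus was 1 without any single IR virus heart and 1 without IR edit heart 4, and that against IR was 1 without IR heart 1 and 1 without IR heart 2. Without IR edit hearts 2 and 4 both counts were 0. DESeq2 called 3 members against IR virus and 4 against IR.

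**Figure D2:**
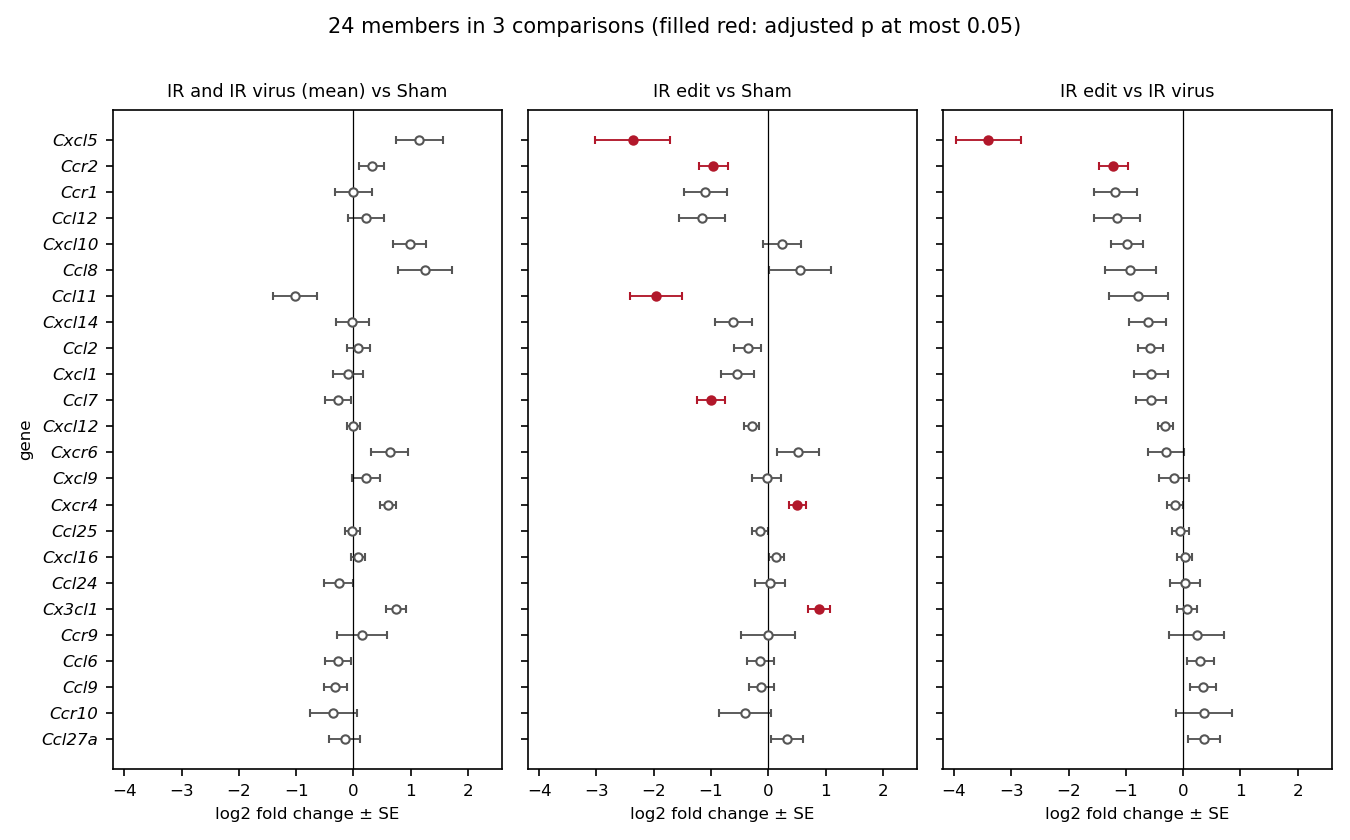
Log2 fold change ± SE of each of 24 members in the mean of IR and IR virus against Sham (left), of IR edit against Sham (middle) and of IR edit against IR virus (right), with filled red points where the adjusted p was at most 0.05. The left panel has no filled point, the middle one has 6 and the right one has 2, both negative.

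Among the ligands, Cxcl5 differed most in the edited hearts. Cxcl5 encodes a neutrophil chemoattractant and lies on chromosome 5 of mm10 from 90759360 to 90761624, plus strand. Its level was 0.566, 0.129 and 0.52 CPM in Sham hearts 1 to 3 and 0.996, 1.45 and 0.52 CPM in IR hearts 1 to 3. It was 0.557, 1.05 and 0.926 CPM in IR virus hearts 1 to 3 and 0.111, 0.0896, 0.0517 and 0.0405 CPM in IR edit hearts 1 to 4. All 4 IR edit hearts lay below all 9 others, and the lowest of the others was Sham heart 2. Sham heart 2 and IR edit heart 1 had 3 reads each, so their order in CPM rests on library scaling alone.

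These Cxcl5 values rest on few reads. The IR edit hearts had 3, 2, 1 and 1 reads, 7 in all, against 61 in the IR virus hearts, 69 in the IR hearts and 29 in the Sham hearts. The rate of Cxcl5 reads in IR edit was 0.0894 of that in IR virus (exact 95% interval 0.0345 to 0.196, counting error only). It was 0.0757 of that in IR (0.0293 to 0.164) and 0.183 of that in Sham (0.0678 to 0.428). By the fit across all genes, Cxcl5 fell by 3.40 ± 0.57 (SE) on the log2 scale against IR virus (adjusted p = 0.00766). Against IR the difference was -3.63 ± 0.56 (adjusted p = 0.00421) and against Sham -2.37 ± 0.65 (adjusted p = 0.0389).

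The differences of Cxcl5 from IR virus and from IR passed under every alternative tried except the fit without IR edit hearts 2 and 4, where they were -3.21 (adjusted p = 0.0818) and -3.44 (adjusted p = 0.0589). The difference from Sham did not pass without Sham heart 1 (adjusted p = 0.145), Sham heart 3 (0.109), IR edit heart 2 (0.0901) or IR edit heart 4 (0.114), and without hearts 2 and 4 of IR edit it was -2.18 (0.33). In the unedited injured hearts Cxcl5 was 1.15 ± 0.41 above Sham on the log2 scale, which did not pass (adjusted p = 0.243). Cxcl1, another ligand of CXCR2, passed in no comparison and was at 0.993 to 1.96 CPM in Sham, 0.823 to 1.56 in IR, 1.09 to 1.68 in IR virus and 0.809 to 1.14 in IR edit.

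Ppbp, whose product CXCL7 is a platelet chemokine and also a ligand of CXCR2, falls outside the symbol rule for members and is on the list of chemokine pathway genes; it is named here after its values were seen. Its differences were opposite in sign to those of Cxcl5. It was at 1.25, 0.732 and 1.04 CPM in Sham, 0.823, 0.938 and 4.59 CPM in IR, 0.756, 1.09 and 0.337 CPM in IR virus and 5.86, 2.06, 4.76 and 1.5 CPM in IR edit. All IR edit hearts lay above all Sham and IR virus hearts and overlapped IR through IR heart 3. The Ppbp difference was 2.27 ± 0.63 on the log2 scale from IR virus (adjusted p = 0.0852), 1.80 ± 0.60 from Sham (0.0781) and 0.74 ± 0.54 from IR (0.58). The difference from IR virus was called by DESeq2 (adjusted p = 0.0479) and, by edgeR, without IR edit hearts 2 and 4 (2.86, adjusted p = 0.0404).

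Neutrophil markers summed to between 0.947 and 4.80 CPM across the hearts, Ly6g had no read, and 0 of the 3 tested neutrophil genes passed in any comparison by edgeR (0 at an unadjusted p under 0.05) or by DESeq2.

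**Figure D3:**
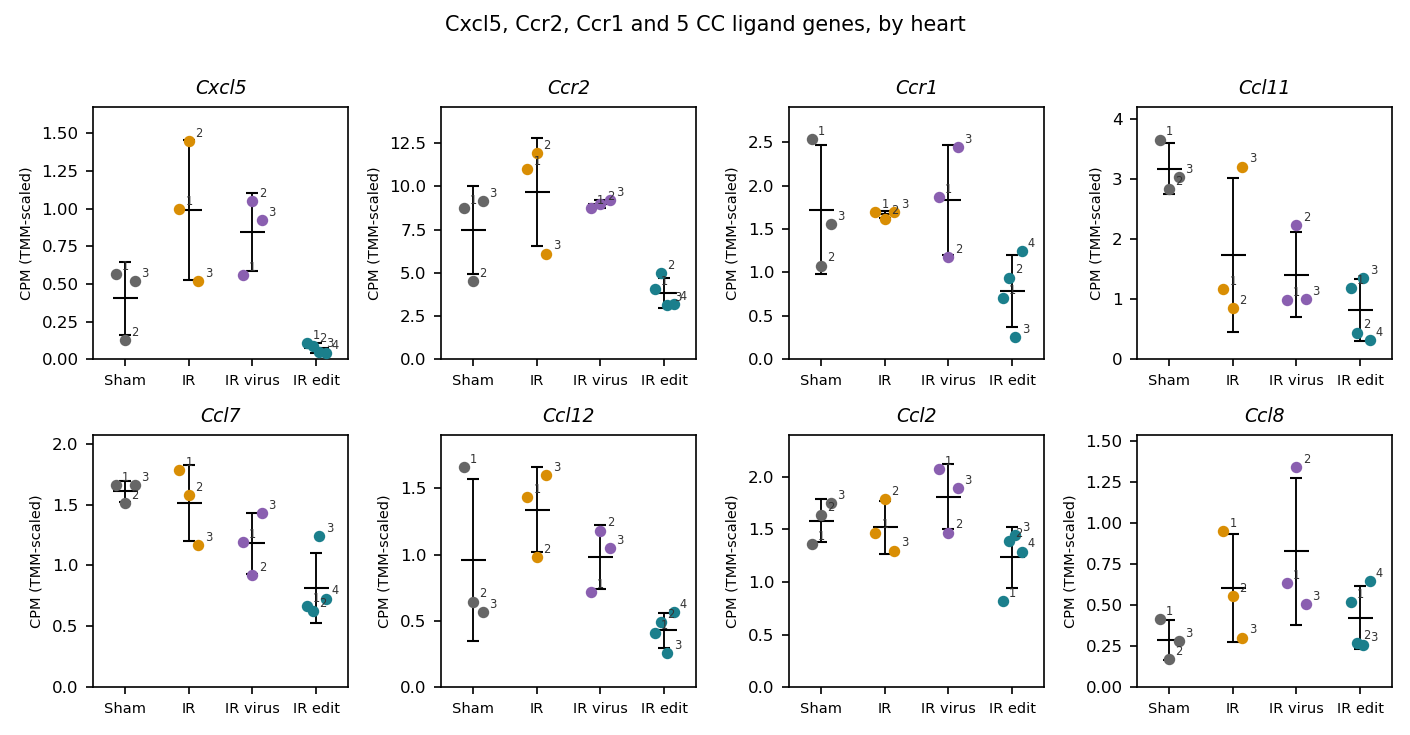
Level of 8 members in each heart in CPM (TMM-scaled), by group; numbers mark the heart, black bars the group mean ± SD. The 4 IR edit points of Cxcl5, of Ccr2 and of Ccl12 lie below all IR and IR virus points of the same gene.

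Of the receptors, Ccr2 was lower in edited hearts. It occupies 124101950 to 124113557 of chromosome 9 in mm10, on the plus strand. Its level was 8.76, 4.52 and 9.13 CPM in the Sham hearts, 11.0, 11.9 and 6.11 CPM in the IR hearts, 8.76, 8.95 and 9.22 CPM in the IR virus hearts and 4.04, 4.97, 3.16 and 3.20 CPM in the IR edit hearts. The IR edit hearts lay below every IR and IR virus heart and overlapped Sham only through Sham heart 2. The Ccr2 difference was -1.22 ± 0.25 on the log2 scale against IR virus (adjusted p = 0.0211), -1.33 ± 0.25 against IR (adjusted p = 0.0136) and -0.96 ± 0.25 against Sham (adjusted p = 0.0317). In whole-heart RNA, fewer cells that carry a receptor and less RNA per cell cannot be told apart.

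The Ccr2 call against IR virus did not hold without IR virus heart 1 (adjusted p = 0.0823), heart 2 (0.0722) or heart 3 (0.0769), or without IR edit heart 4 (0.0595). Against IR it did not hold without IR heart 1 (0.0922) or IR heart 2 (0.108), and against Sham without Sham heart 1 (0.113), Sham heart 3 (0.119) or IR edit heart 4 (0.0944). In the fit of the 2 groups alone it did not pass against Sham (0.0816). Without IR edit hearts 2 and 4 the Ccr2 differences were -1.30 from IR virus, -1.41 from IR and -1.04 from Sham, and none passed. In unedited injured hearts Ccr2 was 0.32 ± 0.22 above Sham, which did not pass (adjusted p = 0.543).

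Ccr1, a receptor of monocytes and neutrophils on the same chromosome (123962124 to 123968692, minus strand), had negative differences that did not pass by edgeR. It was at 2.53, 1.08 and 1.56 CPM in Sham, 1.69, 1.62 and 1.69 CPM in IR, 1.87, 1.18 and 2.44 CPM in IR virus and 0.705, 0.941, 0.259 and 1.25 CPM in IR edit. IR edit lay below IR in every heart but overlapped IR virus and Sham through IR edit heart 4. The log2 differences were -1.18 ± 0.38 from IR virus (adjusted p = 0.139), -1.04 ± 0.38 from IR (0.214) and -1.10 ± 0.38 from Sham (0.0863). DESeq2 called the difference of Ccr1 from Sham (adjusted p = 0.0468), and with no filter on low counts edgeR called all 3.

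Markers of the cells that carry these receptors were read beside them. Of the 15 tested genes of the macrophage and monocyte list, 0 passed by edgeR in any of the 7 comparisons (0 to 4 at an unadjusted p under 0.05), and 0 by DESeq2. The list's summed level was 233 to 382 CPM in Sham, 303 to 310 in IR, 301 to 322 in IR virus and 258 to 354 in IR edit. The summed level of 6 member receptors was 12.2 to 16.8 CPM in Sham, 15.7 to 22.1 CPM over the 6 unedited injured hearts and 9.73 to 14.6 CPM in IR edit. Ccr2 is part of that sum, which is therefore no independent support for its difference. Of the monocyte genes in the list, Chil3 had 0 to 0.26 CPM and Ly6c2 0 to 0.252 CPM except in IR heart 2, at 8.53 CPM. Plac8, another monocyte gene of the list, was at 0.189 to 0.491 CPM in Sham, 0.217 to 0.693 in IR, 0.504 to 0.637 in IR virus and 0.155 to 0.631 in IR edit, with a log2 difference of -0.78 ± 0.49 between IR edit and IR virus that did not pass (adjusted p = 0.469). T and NK cell genes summed to 2.33 to 4.30 CPM with 0 of the 2 tested genes called by edgeR in any comparison (0 or 1 at an unadjusted p under 0.05) and 0 by DESeq2.

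Of 6 tested dendritic cell genes, 0 passed in any comparison by edgeR or DESeq2, but 3 were lower in IR edit than in IR virus at an unadjusted p under 0.05, where 15.2% of all genes reached that level. These were Itgax (-0.82 ± 0.31 on the log2 scale, adjusted p = 0.222), H2-Ab1 (-0.53 ± 0.19, 0.182) and H2-Aa (-0.43 ± 0.18, 0.273), named after their values were seen. Itgax, H2-Ab1 and H2-Aa are also expressed by macrophages. The other 3, Clec9a, Zbtb46 and Cd209a, had positive differences. The summed level of the list was 58.1 to 80 CPM in Sham, 70.4 to 73.3 in IR, 66.9 to 79 in IR virus and 54.4 to 72.4 in IR edit. Xcr1, a chemokine receptor of dendritic cells on the pathway list, was at 0.431 to 0.831 CPM in Sham, 0.606 to 0.81 in IR, 1.07 to 1.55 in IR virus and 0.445 to 0.769 in IR edit. All IR edit hearts lay below all IR virus hearts in Xcr1, with a difference of -0.98 ± 0.27 that did not pass (adjusted p = 0.0757). The part of these cells in the Ccr2 difference was not tested.

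Other marker lists held genes that passed. Of immediate early genes, transcription factors and others that respond within minutes to stimulation, 14 of 19 passed as higher in the edited hearts than in Sham, beside 4.61% of all genes, among them Nr4a1 at 3.59 ± 0.27 and Fos at 2.70 ± 0.37 on the log2 scale. Against IR virus and against IR 7 of 19 passed as higher, beside 0.962% and 0.784% of all genes. The counts without IR edit hearts 2 and 4 were 8 against Sham, 6 against IR virus and 7 against IR. Their summed level was 307 to 552 CPM in IR edit and 182 to 229 CPM in the other groups. Their part in the receptor and ligand differences was not tested.

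**Figure D4:**
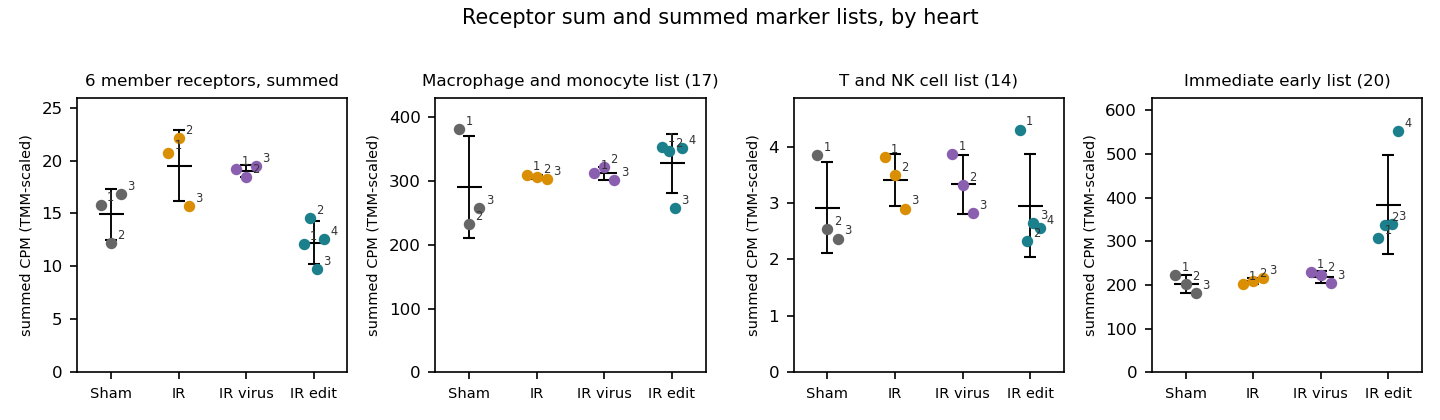
Summed level in CPM (TMM-scaled) of 6 member receptors and of 3 marker lists in each heart, by group; numbers mark the heart, black bars the group mean ± SD. The receptor sums of the IR edit hearts (9.73 to 14.6) lie below those of all IR and IR virus hearts, the macrophage and monocyte sums overlap in all groups, and the immediate early sums of IR edit lie above all others.

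Ccl2, Ccl7 and Ccl12, which encode ligands of CCR2, sit together with Ccl8 and with Ccl11, a ligand gene of the eosinophil receptor CCR3. On chromosome 11 of mm10 Ccl2 runs from 82035571 to 82037453, Ccl7 from 82045712 to 82047525 and Ccl11 from 82057823 to 82062955. Ccl12 runs from 82101845 to 82103400 and Ccl8 from 82115185 to 82116799, and all are on the plus strand. Ccl11 and Ccl7 were lower in IR edit than in Sham, and no gene of the cluster passed in another comparison by edgeR. Ccl24, which encodes another eotaxin, lies elsewhere, on chromosome 5. These values are low, with mean levels under 4 CPM.

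Ccl11, which encodes eotaxin, was at 3.66, 2.84 and 3.03 CPM in Sham, 1.17, 0.853 and 3.21 CPM in IR, 0.995, 2.23 and 1.01 CPM in IR virus and 1.19, 0.448, 1.35 and 0.324 CPM in IR edit. Every injured heart except IR heart 3 lay below all Sham hearts. The log2 difference from Sham was -1.96 ± 0.46 in IR edit (adjusted p = 0.0202) and -1.02 ± 0.39 in the unedited injured hearts (adjusted p = 0.265). Between IR edit and IR virus it was -0.78 ± 0.51 and did not pass (adjusted p = 0.489). The call against Sham did not hold without Sham heart 1 (adjusted p = 0.0631), IR edit heart 2 (0.0679) or IR edit heart 4 (0.0572), and without IR edit hearts 2 and 4 the difference was -1.34 (0.249).

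Ccl7, a monocyte chemoattractant, was at 1.66, 1.51 and 1.66 CPM in Sham, 1.78, 1.58 and 1.17 CPM in IR, 1.19, 0.924 and 1.43 CPM in IR virus and 0.668, 0.627, 1.24 and 0.728 CPM in IR edit. All IR edit hearts lay below all Sham hearts, and IR edit heart 3 lay among the IR and IR virus hearts. The difference of -1.0 ± 0.25 from Sham passed (adjusted p = 0.0275), and that of -0.56 ± 0.26 from IR virus did not (adjusted p = 0.333). With single hearts left out, the call against Sham held only without IR edit heart 3 (adjusted p = 0.00337). It was 0.0757, 0.0539 and 0.0703 without Sham hearts 1, 2 and 3, and 0.0584, 0.0895 and 0.0801 without IR edit hearts 1, 2 and 4. In the fit of the 2 groups alone Ccl7 did not pass (0.0829), and without IR edit hearts 2 and 4 the difference was -0.79 (0.33).

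Ccl12 and Ccl2, both ligands of CCR2 in the mouse, passed in no comparison by edgeR. Ccl12 was at 1.66, 0.646 and 0.568 CPM in Sham, 1.43, 0.981 and 1.60 CPM in IR, 0.716, 1.18 and 1.05 CPM in IR virus and 0.408, 0.493, 0.259 and 0.566 CPM in IR edit. The 4 IR edit values lay below all others, by a small margin below Sham heart 3. The log2 difference was -1.60 ± 0.38 from IR (adjusted p = 0.0515), -1.15 ± 0.40 from IR virus (0.172) and -1.16 ± 0.40 from Sham (0.0865). The difference of Ccl12 from IR lay near the threshold: it was called by DESeq2 (adjusted p = 0.014), with robust dispersion (0.0456) and in the fit of the 2 groups alone (0.0345). With no filter on low counts all 3 were called, and without IR edit hearts 2 and 4 none was.

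Ccl2 was at 1.36, 1.64 and 1.75 CPM in Sham, 1.47, 1.79 and 1.30 CPM in IR, 2.07, 1.47 and 1.89 CPM in IR virus and 0.816, 1.39, 1.45 and 1.29 CPM in IR edit. The IR edit hearts lay below the IR virus hearts and overlapped the others, with a log2 difference of -0.57 ± 0.22 from IR virus (adjusted p = 0.234). Ccl8, a further ligand gene of the cluster, was 1.25 ± 0.47 above Sham in the unedited injured hearts without passing (adjusted p = 0.269). Its level was 0.172 to 0.415 CPM in Sham, 0.303 to 0.953 in IR, 0.505 to 1.34 in IR virus and 0.259 to 0.647 in IR edit.

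Cx3cl1 and Cxcr4 were the members above Sham in the edited hearts, and both also lay above Sham in each unedited injured heart. Promoter sequence from the RefSeq table for GRCm38.p6 was found for 17 of the 25 members. Cxcl5, Ccl11 and Ccl7 were not among them. Shown here are the bases ahead of the first annotated exon for Cx3cl1 (chr8:94771930-94772008, plus strand) and Cxcr4 (chr1:128592300-128592549, minus strand), because these were the members that were higher, and for Cxcl10 (chr5:92348890-92349139, minus strand), an interferon-induced ligand, as a promoter with inflammatory motifs. Each reads 5′ to 3′ on the strand of its gene, and capitals mark matches on either strand to an NF-kB motif (GGG, any 5 bases, CC) or to an interferon-response motif (GAAA, any 2 bases, GAAA).
Cx3cl1: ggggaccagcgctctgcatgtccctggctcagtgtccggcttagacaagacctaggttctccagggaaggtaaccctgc
Cxcr4: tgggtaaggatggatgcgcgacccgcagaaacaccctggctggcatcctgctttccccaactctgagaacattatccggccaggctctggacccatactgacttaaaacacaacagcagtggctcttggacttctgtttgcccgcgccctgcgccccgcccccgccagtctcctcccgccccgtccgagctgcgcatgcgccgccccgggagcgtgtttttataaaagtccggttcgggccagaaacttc
Cxcl10: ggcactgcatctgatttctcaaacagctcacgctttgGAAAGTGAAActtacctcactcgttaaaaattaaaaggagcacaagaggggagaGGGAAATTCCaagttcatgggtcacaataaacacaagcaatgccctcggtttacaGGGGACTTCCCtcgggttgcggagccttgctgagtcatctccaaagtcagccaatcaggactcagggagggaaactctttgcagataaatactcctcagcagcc

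The stretches of Cx3cl1 and Cxcr4 held no match to either motif. That of Cxcl10 held 1 interferon-response match and 3 NF-kB matches, the last 2 of which overlap in 1 run of capitals. Over all 250 bases before each start, not cut at annotated exons, the NF-kB letters occurred in 45.8% of 32851 promoters and in 9 of 20 promoters of members. The interferon-response letters occurred in 2.98% of all promoters and in 2 of the 20, those of Cxcl10 and Cxcl14. A match is a description of the letters and does not show binding.

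Cx3cl1 lies on chromosome 8 of mm10 from 94772009 to 94782427, plus strand. Its level was 4.30, 4.82 and 4.54 CPM in Sham, 7.71, 6.95 and 7.02 CPM in IR, 9.35, 7.64 and 7.16 CPM in IR virus and 7.98, 9.54, 5.33 and 10.7 CPM in IR edit. All 10 injured hearts lay above all 3 Sham hearts, and IR edit heart 3 was the lowest of the injured ones. The difference from Sham was 0.89 ± 0.19 on the log2 scale in IR edit (adjusted p = 0.0118), and it kept its call with any single heart left out. It did not pass without IR edit hearts 2 and 4, at 0.56 (adjusted p = 0.186), or in the fit of the 2 groups alone (0.0679).

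In the unedited injured hearts Cx3cl1 was 0.74 ± 0.18 above Sham (adjusted p = 0.0911), with 0.67 ± 0.20 in IR (0.376) and 0.82 ± 0.20 in IR virus (0.132). The gene did not pass between IR edit and IR virus, at 0.07 ± 0.18 (adjusted p = 0.901), a difference whose sign changed between alternatives. The comparisons with Sham share the 3 Sham hearts. Cx3cr1, the receptor of fractalkine, was at 3.55 to 4.97 CPM in Sham and 3.83 to 7.84 CPM in IR edit, a log2 difference of 0.55 ± 0.25 that did not pass (adjusted p = 0.19) and that passed without IR edit heart 3 (0.71, adjusted p = 0.0453).

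Cxcr4, the receptor of CXCL12, lies on chromosome 1 of mm10 from 128588199 to 128592293, minus strand. It was at 3.40, 5.04 and 5.11 CPM in Sham, 7.01, 6.82 and 6.15 CPM in IR, 7.40, 6.80 and 6.95 CPM in IR virus and 6.31, 7.30, 5.17 and 6.80 CPM in IR edit. Every injured heart lay above every Sham heart, IR edit heart 3 by a narrow margin. The difference from Sham was 0.51 ± 0.15 in IR edit (adjusted p = 0.0499) and 0.61 ± 0.14 in the unedited injured hearts (adjusted p = 0.0871). The call in IR edit lay at the threshold: it held without IR edit heart 3 (adjusted p = 0.014) and was lost without each other Sham or IR edit heart (0.0554 to 0.186). It was also lost without IR edit hearts 2 and 4 (0.36, adjusted p = 0.474) and in the fit of the 2 groups alone (0.155).

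Cxcl12 itself passed in no comparison. This ligand was at 198, 297 and 264 CPM in Sham, 253, 265 and 227 CPM in IR, 267, 237 and 264 CPM in IR virus and 240, 191, 224 and 173 CPM in IR edit. The groups overlapped, with IR edit heart 4 lowest and Sham heart 2 highest. The log2 difference was -0.29 ± 0.13 from Sham (adjusted p = 0.187) and -0.31 ± 0.13 from IR virus (adjusted p = 0.273). Without Sham heart 1 the difference from Sham was -0.44 and passed (adjusted p = 0.0499).

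**Figure D5:**
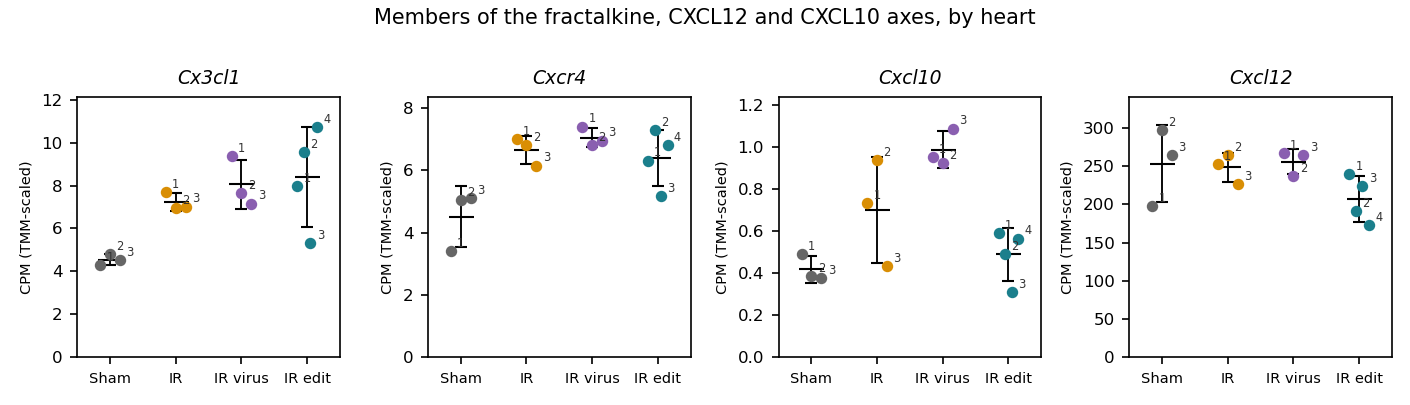
Level of Cx3cl1, Cxcr4, Cxcl10 and Cxcl12 in each heart in CPM (TMM-scaled), by group; numbers mark the heart, black bars the group mean ± SD. All injured hearts lie above the Sham hearts for Cx3cl1 and Cxcr4, and the IR virus hearts lie above the Sham and IR edit hearts for Cxcl10.

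Cxcl10, an interferon-induced ligand of CXCR3, was at 0.491, 0.388 and 0.378 CPM in Sham, 0.736, 0.938 and 0.433 CPM in IR, 0.955, 0.924 and 1.09 CPM in IR virus and 0.594, 0.493, 0.310 and 0.566 CPM in IR edit. IR virus was above both Sham and IR edit in every heart. The log2 difference of IR edit from IR virus was -0.98 ± 0.28 (adjusted p = 0.0994) and that of the unedited injured hearts from Sham was 0.98 ± 0.29 (adjusted p = 0.179), and neither passed. Its exons overlap those of Art3 on the other strand by 133 bases, and whether counting used strand is not given in the sources used here.

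Cxcl9, the other expressed ligand of CXCR3, was at 4.05 to 6.76 CPM in Sham, 5.80 to 8.97 in IR, 5.85 to 6.47 in IR virus and 3.24 to 8.42 in IR edit, and its log2 difference between IR edit and IR virus was -0.16 ± 0.26 (adjusted p = 0.811), with a sign that changed between alternatives. Of 18 tested interferon-stimulated genes, 0 passed by edgeR against IR virus or Sham, and DESeq2 called Gbp5 alone in each. At an unadjusted p under 0.05 there were 6 against IR virus, beside 15.2% of all genes. Against Sham there were 4 at that level, beside 3696 of all 15690 genes. These 6 and 4 were all lower in IR edit. Against IR virus 17 of the 18 had negative differences, with a median of -0.32. Gbp4 and Gbp5, guanylate-binding proteins, fell against IR by 1.01 ± 0.21 (adjusted p = 0.0293) and 0.91 ± 0.20 (0.0399). They were 2 of the 18, where 0.637% of all genes passed as lower. Both calls were lost without any single IR heart and without IR edit heart 2 or heart 4. With both of these left out they were -0.69 (0.206) and -0.65 (0.291).

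Cxcl16, a membrane-anchored chemokine, and its receptor Cxcr6 passed in no comparison. Cxcl16 was at 5.78, 6.50 and 5.91 CPM in Sham, 6.62, 6.48 and 5.76 CPM in IR, 6.85, 6.17 and 6.57 CPM in IR virus and 6.75, 6.50, 5.28 and 8.05 CPM in IR edit. Its exons share 552 bases with Zmynd15 on the other strand. Cxcr6 was at 0.340, 0.258 and 0.378 CPM in Sham, 0.346, 0.597 and 0.390 CPM in IR, 0.716, 0.630 and 0.379 CPM in IR virus and 0.556, 0.314, 0.414 and 0.566 CPM in IR edit. Both genes overlapped between IR edit and each other group.

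Cxcl14, an epithelial and stromal chemokine, had 9.40, 9.73 and 7.57 CPM in Sham, 5.93, 6.27 and 13.6 CPM in IR, 7.36, 13.2 and 6.40 CPM in IR virus and 8.79, 4.35, 6.11 and 3.96 CPM in IR edit. IR heart 3 and IR virus heart 2 were the highest and the groups overlapped. Its difference of -0.61 ± 0.32 from Sham in IR edit did not pass (adjusted p = 0.273).

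The other members also passed in no comparison. Over the 13 hearts Ccl6 had 146 to 389 reads, Ccl9, its neighbour on chromosome 11, 115 to 270, Ccl25, a ligand of CCR9, 76 to 105, Ccl27a 13 to 39, Ccl24, an eotaxin, 11 to 29, and Ccr9 3 to 14. Of the stretches of 50 bases in Ccl27a, 28.4% also lie in Gm20878, so its count is uncertain. The level of Ccr10, a receptor of skin-homing lymphocytes, was 0.239 to 0.953 CPM.

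Genes that receive or terminate the chemokine signal were followed with a list of 28, of which 25 were tested. By edgeR, 4 passed as higher in the edited hearts than in Sham, beside 4.61% of all genes, and 0 as lower, 0 passed in IR edit against IR virus (3 at an unadjusted p under 0.05) and 0 in IR edit against IR (2 at that level). DESeq2 called 6, 1 (Ppbp) and 0 in these 3 comparisons. The median log2 fold change of the list was 0.10 against Sham and -0.01 against IR virus. Ackr2, a scavenging receptor for inflammatory CC chemokines, was at 0.904 to 1.18 CPM in Sham, 1.28 to 1.65 in IR, 1.60 to 2.11 in IR virus and 1.76 to 2.67 in IR edit, with a difference of 1.0 ± 0.21 between IR edit and Sham (adjusted p = 0.0128). Grk5, a kinase of activated receptors, was higher by 0.72 ± 0.19 (adjusted p = 0.0354), Arrb1, an arrestin, by 0.42 ± 0.12 (0.039) and Ackr3, the scavenging receptor for CXCL12, by 0.28 ± 0.082 (0.0499).

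Of these 4 genes, Ackr2 alone kept its call with any single heart left out. It lost it without IR edit hearts 2 and 4 (0.84, adjusted p = 0.132), as did Grk5 (0.34, 0.488), Arrb1 (0.31, 0.401) and Ackr3 (0.26, 0.337). In the fit of the 2 groups alone none of the 4 passed. The count of 4 was 2 without Sham heart 1, 1 without Sham heart 2, 2 without Sham heart 3, and 2, 1, 10 and 1 without IR edit hearts 1, 2, 3 and 4. Ackr4, a scavenging receptor for CCL19 and CCL21, had a difference of 0.59 ± 0.25 that did not pass (adjusted p = 0.162) and that passed without IR edit heart 3 (0.77, adjusted p = 0.0236), and Ackr1, at 0 to 0.264 CPM, was not tested.

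Cytokines and NF-kB genes that induce chemokines made up a list of 22, of which 14 were tested. Nfkb2, an NF-kB subunit (0.42 ± 0.11, adjusted p = 0.0296), and Il1b, which encodes interleukin 1 beta (1.28 ± 0.35, adjusted p = 0.0377), passed as higher in the edited hearts than in Sham. They were 2 of the 14, beside 4.61% of all genes, and neither passed against IR virus or IR. Il1b was at 0.172 to 0.302 CPM in Sham, 0.26 to 0.39 in IR, 0.21 to 0.517 in IR virus and 0.493 to 0.647 in IR edit. Nfkb2 was at 9.41 to 12.2 CPM in Sham, 10.8 to 13.4 in IR, 13 to 15 in IR virus and 13.1 to 15.5 in IR edit. Both calls were lost without Sham heart 1 or 3 and without IR edit heart 1, 2 or 4. That of Il1b was also lost without Sham heart 2 and by the DESeq2 test. Without IR edit hearts 2 and 4 they were 0.38 for Nfkb2 (adjusted p = 0.269) and 1.31 for Il1b (0.22), and neither passed. Csf1, the growth factor of macrophages, was at 54.1 to 59.9 CPM in IR virus and 30.7 to 43.8 CPM in IR edit, a difference of -0.59 ± 0.12 (adjusted p = 0.0172). It did not pass without IR virus heart 1 or 2, or without IR edit hearts 2 and 4 (adjusted p = 0.0935).

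Markers of the stromal cells that make CXCL12, fractalkine and eotaxin were counted as well. Of 10 fibroblast genes, 6 passed as higher in the edited hearts than in Sham, beside 4.61% of all genes. Gsn differed by 0.49 and Mfap5 by 1.43 on the log2 scale. Against IR virus 0 passed by edgeR (1 at an unadjusted p under 0.05) or by DESeq2. The rise was not particular to editing. In the unedited injured hearts all 10 had positive differences from Sham, with a median of 0.50, against 0.41 in IR edit. There 0 passed by edgeR, 9 had an unadjusted p under 0.05, beside 14% of all genes, and DESeq2 called 3. Of 8 pericyte and smooth muscle genes, Abcc9 (-0.80) and Kcnj8 (-0.36) were lower in the edited hearts than in Sham, beside 3.4% of all genes. The list summed to 1150 to 1470 CPM in IR edit and 1550 to 1820 CPM elsewhere. Abcc9 is a large part of that sum, with a mean of 668 CPM in Sham and 385 CPM in IR edit. The sum is therefore no independent support for a difference of the list. Which cells of the whole heart the Abcc9 reads came from was not tested, so its difference does not show a change of pericytes. Against IR virus 0 of the 8 passed by edgeR, but Abcc9 (-0.50, adjusted p = 0.0845), Kcnj8 (-0.41, 0.0551) and Pdgfrb (-0.42, 0.0757; named after its values were seen) lay lower in all IR edit hearts than in all IR virus hearts, and DESeq2 called all 3. Those were 3 of the 8, where 7.07% of all genes lay lower without overlap. Of the 8, 2 had positive differences from IR virus. By edgeR Abcc9 and Kcnj8 passed against IR virus without IR edit heart 1 or heart 3. The 3 differences without IR edit hearts 2 and 4 were -0.22, -0.25 and -0.42, and none passed. Endothelial Fabp4 (-0.39) was lower and lymphatic Flt4 (0.44) and Pdpn (0.82), epicardial Wt1 (0.60) and cardiomyocyte Mybpc3 (0.45) were higher than in Sham, which were 1 of 10 endothelial, 2 of 6 lymphatic, 1 of 3 tested epicardial and 1 of 10 cardiomyocyte genes. The called genes do not stand for their lists: 7 of the 10 cardiomyocyte and 7 of the 10 endothelial genes had negative differences. Of the lymphatic genes 5 of 6 were positive, and Lyve1 was at -0.55. Mean Flt4 was 14.9 CPM in Sham, 20.4 in IR, 22.8 in IR virus and 20.1 in IR edit. Of the 9 stromal, vessel and muscle genes named as called against Sham, only Abcc9 kept its call in every fit with 1 heart left out. It also kept it without IR edit hearts 2 and 4 (-0.51, adjusted p = 0.00316), where the other 8 did not (0.159 to 0.468). In fits of the 2 groups alone none of the 9 passed, Abcc9 by a narrow margin (adjusted p = 0.0504). The part of these markers in the chemokine differences was not tested.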

How the data were processed

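Gene-level read counts of 13 mouse heart libraries were analysed. The authors deposited raw counts per gene symbol, 1 table per library. The submitters' processing notes name featureCounts 1.6.2, HISAT2 2.1.0, Trimmomatic 0.39, FastQC 0.11.8 and build mm10; per the labels' protocols libraries were made with a KAPA mRNA HyperPrep kit. What annotation, strand setting and handling of reads with several matches were used is not given in the sources used here. Groups come from the sample titles.

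Counts were fitted in R 4.3.3 with edgeR 4.0.16: TMM scaling, filterByExpr, a mean per group over all 13 libraries, the quasi-likelihood test and Benjamini-Hochberg adjustment over 15690 genes in each of 7 comparisons. The threshold was an adjusted p of 0.05. SE was obtained from the size of the log2 fold change and the F statistic, as their quotient after taking the root of F. Library totals of 20634820 to 27265276 set the precision: 3 reads were 0.111 to 0.155 CPM. Positions and exonic lengths come from GENCODE release M21, promoters from RefSeq. The code was tested on simulated counts. Alternatives were other scaling, filters, dispersion, DESeq2 1.42.0, a replicate block, no mitochondrial reads, fits of the groups compared alone and single hearts left out.

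The members, the 21 gene lists and the tests were chosen with earlier results of these data known. Values for every heart are given for members called in any comparison, the 3 members with the smallest p in each of 3 comparisons and named ligand and receptor pairs; of each other list, the 2 called genes with the smallest p are named. The values of 1 member are left out: it is counted in the totals of members and is otherwise not reported here.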

Additional observations from a re-analysis of the deposited data

Results flagged for a closer look

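In the 4 IR edit hearts, 3 of the 25 members had 1 heart far from the other 3, by a gap-to-range ratio above Dixon's critical value; chance flags about 1 in 20 groups. Ccl24 was at 0.672 CPM in IR edit heart 2 and 1.08 to 1.13 CPM in the others (ratio 0.876). Ccl7 was at 1.24 CPM in IR edit heart 3 and 0.627 to 0.728 CPM in the others (ratio 0.836), and Ccl9 was at 10.1 CPM in IR edit heart 4 and 6 to 6.53 CPM in the others (ratio 0.872).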

How the results depend on the processing

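Of 80 differences of single genes that were recomputed, 2 changed sign, and neither passed in any fit. Between IR edit and IR virus, Cxcl9 was 0 with the replicate block, 0.04 without IR edit heart 4 and 0.23 without IR edit hearts 2 and 4. Cx3cl1 was -0.09, -0.06 and -0.26 in the same fits and -0.01 without IR virus heart 3. With each heart left out in turn these ranged from -0.45 to 0.04 for Cxcl9 and from -0.06 to 0.22 for Cx3cl1. With no filter on low counts, the members called were 11 in IR edit against Sham, 7 against IR virus and 8 against IR, and 4, 3 and 5 in the unedited injured hearts, IR and IR virus against Sham. In fits of the compared groups alone they were 1 in IR edit against Sham, 2 against IR virus, 3 against IR, 2 in the unedited injured hearts, 1 in IR and 1 in IR virus against Sham. DESeq2 called 8 in IR edit against Sham, 3 against IR virus, 4 against IR, 2 in the unedited injured hearts and 2 in IR virus against Sham. The share of all genes called in these fits is not given here, so larger counts are no result about the members. Without IR edit hearts 2 and 4, chosen after seeing the data, the counts were 0 in all 3 comparisons of IR edit. With each heart left out in turn the counts ranged from 1 to 6 in IR edit against Sham, 1 to 3 against IR virus and 1 to 4 against IR. They stayed at 0 in the other 4 comparisons.

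The numbers in the titles are not stated to pair the hearts. In 18 pairs of hearts with the same number, deviations correlated at -0.13 to 0.221, with 3 over 0.1, and 6 of 12 hearts correlated best with their own number. With so few hearts per group this check cannot decide whether the numbers mark a shared block. With the number as a replicate block, 1 member passed in each of IR edit against Sham, IR virus and IR, 1 in the unedited injured hearts and 1 in IR virus against Sham. The calls that held in IR edit were Cx3cl1 against Sham and Cxcl5 against IR virus and IR; those of Ccr2, of Ccl11, Ccl7 and Cxcr4, and of Cxcl5 against Sham, were not made in that fit.

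Low reads limit Ccr9, Cxcr6, Ccr10, Ccl8, Cxcl5 and Cxcl10, which had 102 to 198 reads each in all. Cxcl5 could not be tested against Sham in the fit of those groups alone, nor Cxcl10, Ccl8, Il1b and Plac8 under a minimum of 1 CPM in 3 libraries, because the filter left them out.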
